A study of Mus musculus with 24 samples.

Results

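The 10 genes described here, Npy, Sst, Vip, Cck, Tac1, Tac2, Penk, Pdyn, Crh and Cort, encode the precursors of neuropeptides made in the mouse cerebral cortex. They were taken by gene symbol from 36096 genes with a gene identifier in the deposited mRNA table. The choice was made with earlier results of these data known. All 10 passed the filter on low values, which left 15786 genes for testing. The tissue was the medial frontal cortex at postnatal day 28 of mice on the C57BL/6J background, profiled by sequencing of RNA depleted of ribosomal RNA. Control males and control females carried Emx1-cre alone. The males and females called Dnmt3l here came from crossing a conditional Dnmt3l knock-in line to Emx1-cre mice, so that Cre was common to all 12 libraries. Each of the 4 groups held 3 libraries. Separate animals are not named for the libraries in the labels. The p-values therefore reflect only how much these libraries varied, some of which may be technical.

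Neuropeptides are cut from longer precursor proteins, stored in dense-core vesicles and released on strong activity, and they act on G protein-coupled receptors. In the cortex many of these genes mark classes of inhibitory interneuron. Sst and Vip label largely different populations, and the cells that make Npy or Cort overlap in part with the Sst cells. Cck is made by pyramidal neurons as well as by a class of interneuron, and Penk, Tac1 and Pdyn are also abundant in the neurons of the striatum, which lies beside the frontal cortex. Emx1-cre recombines in the excitatory neurons and much of the glia of the dorsal forebrain, whereas most cortical interneurons arise outside the Emx1 lineage. Dnmt3l encodes a cofactor of the de novo DNA methyltransferases without catalytic activity of its own. In bulk tissue, fewer cells of a type and less RNA per cell cannot be told apart, and this holds for every value below.

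Promoter sequences are shown because several of these genes moved together and because Sst is the classic gene in which the cAMP response element, a site bound by CREB, was described. RefSeq promoter windows (build GRCm38.p6) were matched by symbol for 8 of the 10 genes, and Penk and Crh had no window. The 250 bases before the start were searched on both strands for the full element TGACGTCA and for its core CGTCA, which is contained in the full element. Sequences are written 5′ to 3′ on the gene's own strand, with matches in capitals. For Sst and Tac1, whose RefSeq start lies inside the deposited gene span, 30 bases around the match are given, and for the others the 120 bases before the start. Pdyn, with 2 windows and no match in either, is not printed.
Sst, chr16:23890874-23890903, minus strand: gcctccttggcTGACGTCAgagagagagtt
Tac1, chr6:7555006-7555035, plus strand: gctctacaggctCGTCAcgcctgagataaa
Vip, chr10:5639098-5639217, plus strand: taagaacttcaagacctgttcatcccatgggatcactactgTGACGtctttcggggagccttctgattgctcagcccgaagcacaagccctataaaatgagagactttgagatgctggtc
Cck, chr9:121495695-121495814, minus strand: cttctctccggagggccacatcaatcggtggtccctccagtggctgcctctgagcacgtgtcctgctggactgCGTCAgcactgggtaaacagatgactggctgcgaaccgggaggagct
Cort, chr4:149126764-149126883, minus strand: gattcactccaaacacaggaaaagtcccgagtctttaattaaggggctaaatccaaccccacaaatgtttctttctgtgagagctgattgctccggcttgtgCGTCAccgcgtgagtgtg
Npy, chr6:49822590-49822709, plus strand: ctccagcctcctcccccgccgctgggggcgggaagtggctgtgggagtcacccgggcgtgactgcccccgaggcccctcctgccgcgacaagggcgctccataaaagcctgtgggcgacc
Tac2, chr10:127724358-127724477, plus strand: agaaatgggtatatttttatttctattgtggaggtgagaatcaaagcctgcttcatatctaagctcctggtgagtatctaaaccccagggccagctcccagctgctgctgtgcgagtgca

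The full element stood in 1 of the 8 genes' windows, that of Sst, 48 bases before the start. The core stood in 5 of them: Sst, Vip (79 bases before the start), Cck (47 bases), Tac1 (197 and 43 bases) and Cort (18 bases). Npy, Tac2 and Pdyn had neither in the window searched. Among all 32851 RefSeq windows, 1.55% held the full element and 17.8% the core, and among the 11485 tested genes with a window the shares were 2.93% and 29%. The CpG content of the 250 bases ran from 2 CpG in Tac2 and 3 in Vip through 8 in Sst and Cort and 9 in Cck to 17 in Tac1 and 21 in Npy, against a median of 6 over all windows. The 2 Pdyn windows held 4 and 8. Of the genes that rose in the comparison below, Sst, Vip, Cck and Cort had the core and Npy and Tac2 had none. Tac1 had 2 and was not called. These matches describe the sequence only.

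The library totals ran from 27074837 to 32100277 counts in the controls and from 22144970 to 26842726 in the Dnmt3l libraries. Dnmt3l itself had 0 to 3 counts in each control and 521 to 1179 in each Dnmt3l library, where its level was 20.7 to 45.8 CPM (counts scaled to library size by the TMM method). Some libraries stood apart. Dnmt3l female 1 had the highest Dnmt3l level. Its summed astrocyte markers were 7430 CPM, against 6645 to 7243 in the controls and 11226 to 13698 in the other Dnmt3l libraries. Of the 10 neuropeptide genes, 3 (Npy, Vip and Cck) lay above every control in this library and 4 (Tac1, Penk, Pdyn and Cort) below every control. In Dnmt3l female 2, 5 lay above and 2 below. In Dnmt3l female 3 and the Dnmt3l males 6 to 9 lay above and none below. Control male 3 and control females 1 and 2 carried liver transcripts, at 66.8 to 87.2 CPM summed over 7 liver genes (without Ttr), against at most 1.69 CPM in any other library. Dnmt3l females 1 and 2 had the lowest striatal marker levels of all 12 libraries, which bears on Penk, Tac1 and Pdyn below.

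Levels were compared between genes as FPKM, which is scaled to transcript length. In the 6 controls Cck was at 424 ± 35.4 FPKM (mean ± SD, n = 6 here and below), Penk at 327 ± 95.6, Sst at 204 ± 19.0 and Npy at 106 ± 7.58. Vip (14.6 ± 1.52), Tac1 (13.6 ± 3.81) and Tac2 (12.4 ± 3.28) lay close together, followed by Pdyn at 7.61 ± 1.39, Cort at 5.49 ± 1.56 and Crh, the stress hormone releasing factor, at 1.83 ± 0.545 FPKM. Between neighbours in this order the control libraries separated without overlap at Sst and Npy, Npy and Vip, and Cort and Crh, and overlapped at every other step. By the means of the Dnmt3l libraries the order differed by 3 exchanges: Sst (279 FPKM) came above Penk (265 FPKM), Tac2 above Tac1, and Cort above Pdyn. The Dnmt3l libraries overlapped in each of these pairs. Penk stayed above Sst in every Dnmt3l male and in Dnmt3l female 3, and by the Dnmt3l medians (323 and 288 FPKM). It was at 51.7 and 104 FPKM in Dnmt3l females 1 and 2. The spread of Penk FPKM was 29.3% of the mean in controls and 58.2% in Dnmt3l libraries, that of Tac1 28% and 53.3%, and that of Pdyn 18.3% and 35.7%. It was also wider in Dnmt3l libraries for Npy (7.13% and 23.1%), Sst (9.33% and 16.6%) and Cort (28.4% and 42.2%), and narrower for Tac2 (26.4% and 16.8%) and Crh (29.8% and 15.2%).

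**Figure D1:**
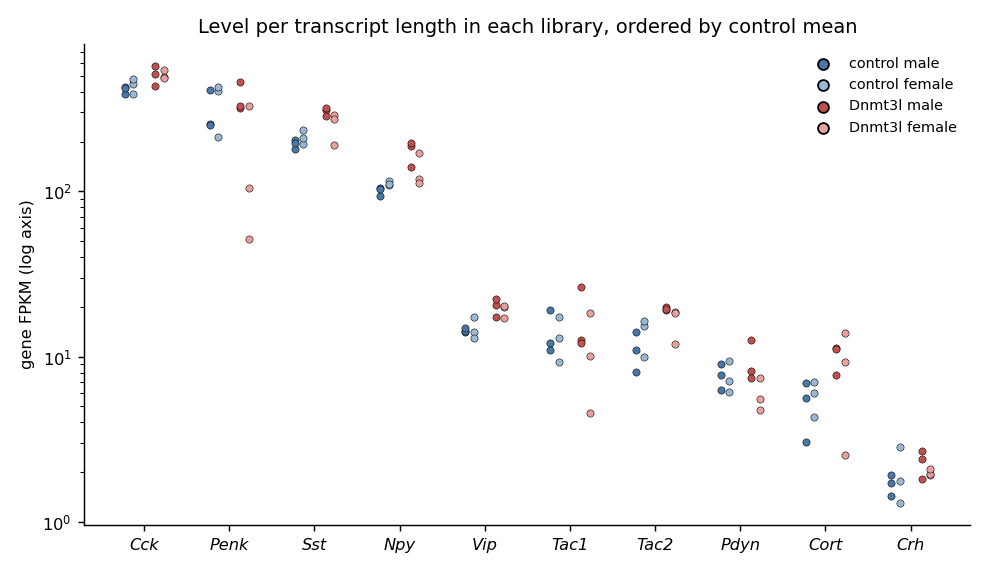
FPKM of the 10 neuropeptide genes in each control and Dnmt3l library, on a log axis, with genes ordered by their mean in controls and each point 1 library. Cck, Penk, Sst and Npy lie far above the others, and the Penk points of the Dnmt3l libraries run from 51.7 to 455 FPKM.

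The effect of the Dnmt3l genotype was taken as the mean of the male and the female difference. Of the 10 genes, 6 rose (Npy, Sst, Vip, Cck, Tac2 and Cort) and none fell at an adjusted p below 0.05 (edgeR quasi-likelihood test, Benjamini-Hochberg over all tested genes). Without adjustment the same test passed 6 genes upward and none downward, and DESeq2 also called none lower. Across all 15786 tested genes 25.2% were called higher and 26.4% lower. The median log2 change of the 10 genes was 0.44, against 0.02 for all tested genes. Tac1, Penk, Pdyn and Crh were not called. Only 2 genes, Vip and Cck, had all 6 Dnmt3l libraries above all 6 controls, which held for 5.47% of all tested genes. None of the 10 had all 6 below, which held for 6.83%. Without the 3 control libraries with liver transcripts, which leaves 1 control female, 3 genes were called higher (Npy, Sst and Vip) and 12.2% of all tested genes were. Cck was then at 0.32 (adjusted p = 0.0768), Tac2 at 0.52 (0.113) and Cort at 1.22 (0.0837, all edgeR).

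**Figure D2:**
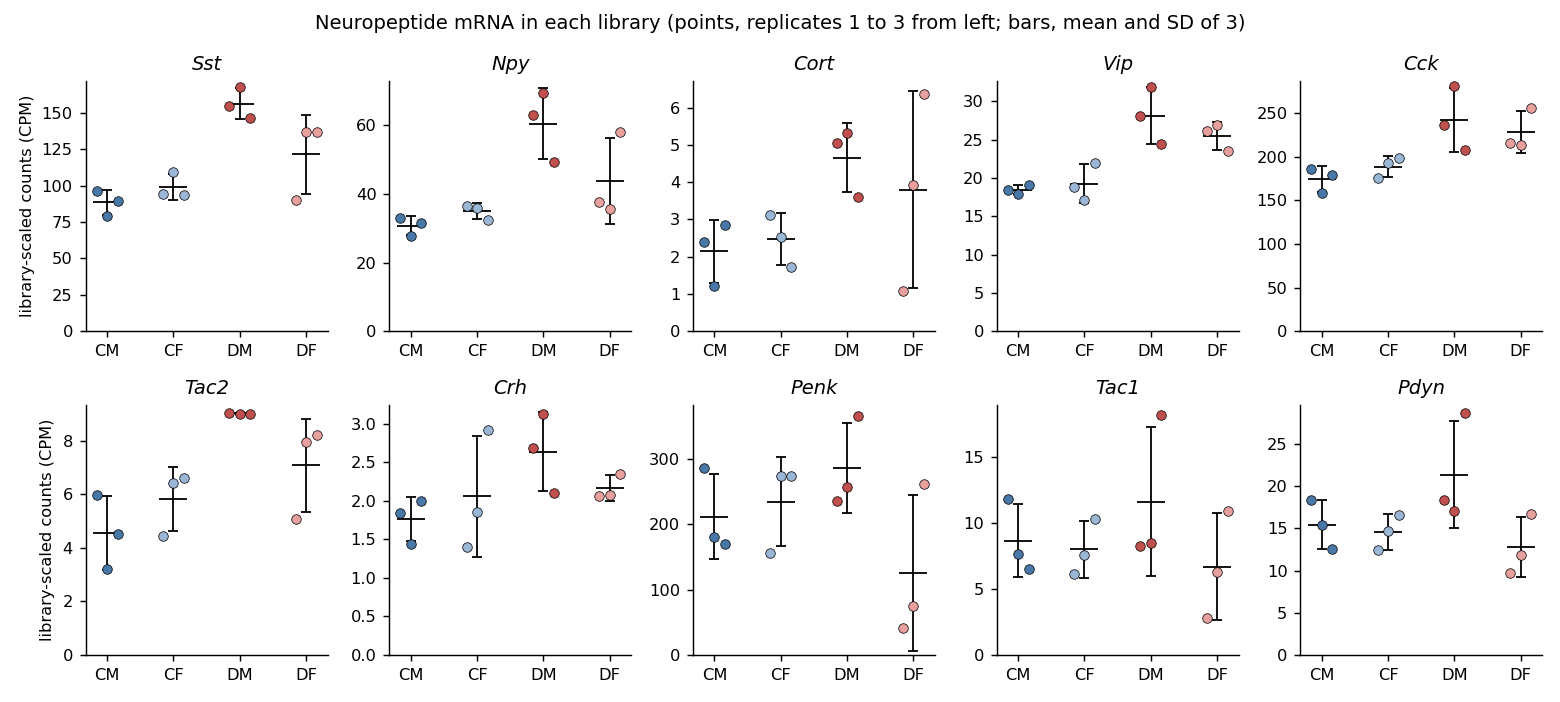
CPM of each neuropeptide gene in the 12 libraries, 1 panel per gene with control males (CM), control females (CF), Dnmt3l males (DM) and Dnmt3l females (DF) side by side, points for libraries and bars for the mean and SD of 3. Npy, Sst and Tac2 are high in the 3 Dnmt3l males, whereas Penk in Dnmt3l females 1 and 2, at 40.9 and 74.5 CPM, lies below every control.

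Npy encodes neuropeptide Y, made by neurogliaform and somatostatin-type interneurons, and lies at chr6:49822710-49829507 (GRCm38, plus strand, as are all gene positions given here from the deposited table). It stood at 33.0, 27.6 and 31.6 CPM in the control males, 36.6, 36.0 and 32.5 in the control females, 62.9, 69.3 and 49.2 in the Dnmt3l males and 37.6, 35.5 and 58.2 in the Dnmt3l females. All 3 Dnmt3l males were above every control, while Dnmt3l female 2 lay within the control range. The averaged log2 change was 0.65 ± 0.12 (SE; adjusted p = 0.00112, edgeR), which is 1.57-fold.

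Sst encodes somatostatin, which inhibits release from its target neurons and defines the dendrite-targeting interneurons (chr16:23889573-23890958, minus strand). Its control values were 96.6, 79.3 and 89.8 CPM in males and 94.4, 109 and 93.6 in females. The Dnmt3l values were 155, 168 and 146 CPM in males and 90.4, 137 and 137 in females. Of the 6 Dnmt3l libraries, 5 lay above every control and Dnmt3l female 1 lay within their range. The log2 change was 0.56 ± 0.10 (adjusted p = 0.000905, edgeR).

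Cort encodes cortistatin, a relative of somatostatin that binds the same receptors (chr4:149125034-149126763, minus strand). It was scarce, with 28 to 149 counts per library. It stood at 2.39, 1.21 and 2.84 CPM in the control males and 3.13, 2.54 and 1.73 in the control females, against 5.06, 5.31 and 3.61 in the Dnmt3l males and 1.09, 3.93 and 6.37 in the Dnmt3l females. The lowest and the highest of the 12 values were thus both in Dnmt3l females. Its log2 change was 0.86 ± 0.34 (adjusted p = 0.0479, edgeR), and the call was lost when any of 9 libraries was left out: control males 1 and 2, control females 2 and 3, each of the 3 Dnmt3l males, and Dnmt3l females 2 and 3. The adjusted p then ran from 0.0511 to 0.169.

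Vip encodes vasoactive intestinal peptide, made by interneurons that mainly contact other interneurons (chr10:5639218-5647617, plus strand). Its values were 18.5, 17.8 and 19.1 CPM in the control males, 18.8, 17.1 and 22 in control females, 28, 31.9 and 24.4 in Dnmt3l males and 26.1, 27.0 and 23.4 in Dnmt3l females. The 2 genotypes did not overlap. Vip had the smallest adjusted p of the 10 genes (log2 change 0.51 ± 0.09, adjusted p = 0.00068, edgeR).

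Cck encodes cholecystokinin, the most abundant of these precursors per length (chr9:121489824-121495694, minus strand). It stood at 186, 158 and 179 CPM in the control males and 175, 192 and 198 in the control females, and at 237, 281 and 208 in the Dnmt3l males and 216, 213 and 256 in the Dnmt3l females. Again no Dnmt3l library reached down to a control. The log2 change, 0.37 ± 0.08 (adjusted p = 0.00269, edgeR), was the smallest of the 6 that were called.

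Tac2 encodes neurokinin B (chr10:127724478-127731768, plus strand). It was at 5.95, 3.21 and 4.50 CPM in males and 4.42, 6.42 and 6.59 in females of the control genotype. The 3 Dnmt3l males were at 9.04, 9.01 and 9 CPM, and the Dnmt3l females at 5.09, 7.95 and 8.21. Dnmt3l female 1 was again the one library inside the control range. The log2 change was 0.63 ± 0.17 (adjusted p = 0.00738, edgeR).

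Crh, made by scattered cortical interneurons, was the least abundant of the 10 (chr3:19693401-19695396, minus strand), with 42 to 86 counts per library. It was at 1.83, 1.44 and 2 CPM in the 3 males and 1.40, 1.85 and 2.92 in the 3 females among controls, and at 2.69, 3.13 and 2.10 in Dnmt3l males and 2.06, 2.08 and 2.35 in Dnmt3l females. Control female 3 lay within the Dnmt3l range, and the other 5 controls lay below all 6 Dnmt3l libraries. A log2 change of 0.33 ± 0.21 was not called (adjusted p = 0.201, edgeR), and its 95% interval, -0.12 to 0.78, includes changes as large as those of Npy and Sst.

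Cell type marker lists moved beside these calls, and their part in the changes of the neuropeptide genes was not tested. Across all tested genes 25.2% were called higher and 26.4% lower. Of 8 astrocyte markers 7 rose and 1 fell (summed level 6645 to 7243 CPM in controls and 7430 to 13698 in Dnmt3l libraries). Slc1a3, a glutamate transporter, led at a log2 change of 0.88, then Slc1a2 at 0.77 and the water channel gene Aqp4 at 0.74. The astrocyte marker that fell was Aldh1l1, at -0.18. Of 8 microglial markers 7 rose and none fell (234 to 266 and 262 to 518 CPM, led by Csf1r at 0.85, Tmem119 at 0.81 and P2ry12 at 0.76). Of 8 oligodendrocyte-lineage markers 6 rose and 1 fell (3590 to 6578 and 3475 to 10878 CPM). Cspg4 led at 1.04, then Pdgfra at 0.96 and the myelin gene Mbp at 0.79, and Cnp fell, at -0.44. All 8 endothelial and pericyte markers rose (285 to 313 and 318 to 595 CPM, led by the tight-junction gene Cldn5 at 1.07, Pecam1 at 0.92 and Cdh5 at 0.80). Of 8 liver genes none rose and 7 fell (156 to 300 and 50.2 to 552 CPM with Ttr, which the choroid plexus also makes). Serpina3k, Mup3 and Ahsg led them and were at 0.0143 CPM or less on average in both Dnmt3l groups. These genes were also at 0 in control males 1 and 2 and control female 3. Their control signal lay only in control male 3 and control females 1 and 2, so no Dnmt3l library was below every control. The share of counts from mitochondrial genes was 2.64% to 3.59% in controls, 3.73% in Dnmt3l female 1 and 5.58% to 7.31% in the other Dnmt3l libraries.

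Genes that mark interneurons apart from their peptides went mostly the other way. Of 34 tested, 6 rose (17.6%, against 25.2% of all tested genes) and 14 fell (41.2%, against 26.4%). The median log2 change was -0.19. Calb2, which encodes calretinin and is shared by many Vip cells, changed by -1.24 ± 0.15 (adjusted p = 0.000206, edgeR) and lay below all controls in all 6 Dnmt3l libraries. Sncg changed by -1.22 and Calb1, which is also made by upper-layer pyramidal neurons, by -1.01. The GABA-synthesising enzymes Gad1 and Gad2 changed by -0.69 and -0.73, and Pvalb, the marker of fast-spiking cells, by -0.93. Chodl, found in the long-range Sst and Npy cells, rose by 0.69 (log2), while Nos1, made by the same cells, changed by -0.31. The summed level of the list was 2431 to 2592 CPM in controls and 2397 to 2723 in Dnmt3l libraries, so that this sum differed little between genotypes. No gene of the list was at 0.

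Of 19 excitatory cortical neuron markers 2 rose (10.5%, against 25.2% of all tested genes) and 9 fell (47.4%, against 26.4%). The median log2 change was -0.37. Neurod6, a transcription factor of pyramidal neurons, changed by -1.57, Calb1 by -1.01 and Etv1, of deep-layer neurons, by -0.74. Those that rose were Slc17a7 and Camk2a. The list summed to 6018 to 7153 CPM in controls and 7067 to 8400 in Dnmt3l libraries. Much of this sum came from these 2 genes, with Camk2a at 3220 CPM and Slc17a7 at 1029 CPM on average in control males. No gene of the list was at 0, so the markers of cortical tissue were present in every library.

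**Figure D3:**
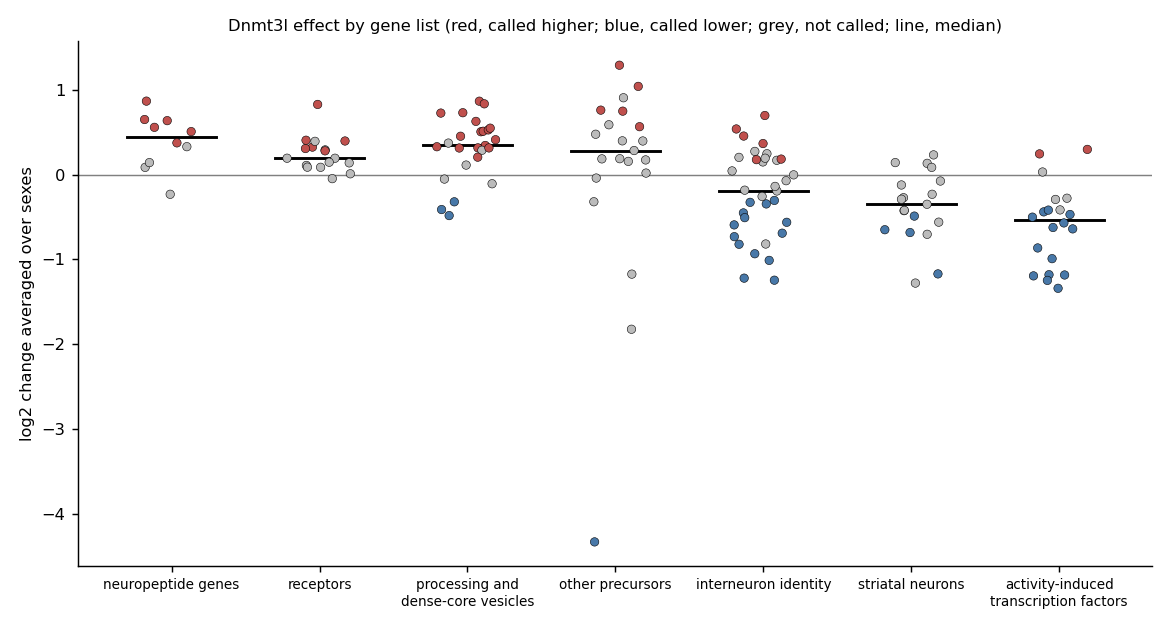
Averaged log2 change of the genes of each list, 1 point per gene (red, called higher; blue, called lower; grey, not called) with the median as a line. The striatal list includes Penk, Tac1 and Pdyn here. The points of the neuropeptide genes and of the processing genes lie mostly above 0, with medians of 0.44 and 0.34, and those of the activity-induced transcription factors mostly below, with a median of -0.54. The last list also holds Creb1, Crem and CREB coactivator genes.

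The opioid and tachykinin precursors that the striatum also makes were not called. Penk encodes proenkephalin (chr4:4133531-4138819, minus strand). It was at 286, 180 and 169 CPM in the control males, 156, 274 and 273 in control females, 236, 257 and 365 in Dnmt3l males and 40.9, 74.5 and 262 in Dnmt3l females. Dnmt3l females 1 and 2 were below, and Dnmt3l male 3 above, every control. The averaged log2 change was -0.23 ± 0.35 (adjusted p = 0.597, edgeR; 95% interval -0.98 to 0.52). Without Dnmt3l female 3, the one female with Penk at the control level, it was -0.79. Penk was then called lower (adjusted p = 0.0105, edgeR), as were 23.7% of all tested genes. Without Dnmt3l female 1 the change was -0.04.

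Tac1 encodes the precursor of substance P (chr6:7554879-7565834, plus strand). It ran from 6.12 to 11.8 CPM in controls, from 8.24 to 18.2 in Dnmt3l males and from 2.83 to 11.0 in Dnmt3l females. The Dnmt3l libraries thus held both the highest and the lowest value. The log2 change was 0.08 ± 0.30 (adjusted p = 0.832, edgeR). Pdyn encodes prodynorphin (chr2:129686565-129699844, minus strand) and ran from 12.4 to 18.4 CPM in controls, 17.1 to 28.7 in Dnmt3l males and 9.75 to 16.7 in Dnmt3l females. Its log2 change was 0.14 ± 0.16 (adjusted p = 0.489, edgeR).

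These 3 genes moved with striatal marker genes. The 16 markers other than Penk, Tac1 and Pdyn, among them the dopamine receptor genes Drd1 and Drd2, summed to 873 to 1414 CPM in controls and 503 to 1546 in Dnmt3l libraries. Dnmt3l females 1 and 2 were at 518 and 503 CPM, below every control, and Dnmt3l male 3 at 1546, above every control. In those same libraries Drd2 was at 4.47, 4.83 and 46.8 CPM, against 20.4 to 38.2 in controls. Of the 16, none rose and 4 fell in the averaged effect, a share close to the 26.4% of all tested genes called lower. They were Ppp1r1b (DARPP-32, -1.17), Pde10a (-0.68), Rarb (-0.65) and Foxp2, of which Ppp1r1b and Foxp2 are also made in deep cortical layers. Isl1 in Dnmt3l female 1 and Ido1 in Dnmt3l female 2 were at 0, and no marker was at 0 in all libraries. Whether the dissections differed was not tested.

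Across the 6 controls, log2 levels were compared with the log2 striatal sum, most closely related for Pdyn (Pearson r = 0.932, exact permutation p = 0.00694, adjusted over 20 relations 0.0556; r = 0.998 without control male 1 and control female 1, the libraries farthest from the median) and for Tac1 (r = 0.894, exact permutation p = 0.0139, adjusted 0.0556; 0.926 without those libraries). Spearman's rho was 1 for both, with an exact permutation p of 0.00278, the smallest that 6 libraries allow, and 0.0278 after adjustment. For Penk r was 0.805 (exact permutation p = 0.0333, adjusted 0.111; rho 0.829, exact permutation p = 0.0583, adjusted 0.233), and 0.618 without those libraries. The r values of these 3 genes did not pass the adjustment at 0.05, and for the other 7 the adjusted exact permutation p of r was 0.444 or more. The Dnmt3l libraries fell into 2 with low and 4 with higher striatal sums, so no correlation is given for them. With the striatal sum as a covariate, a fit added after the data were seen, Pdyn was called higher (0.38, adjusted p = 0.0112, edgeR), Tac1 was at 0.47 (adjusted p = 0.0643) and Penk at 0.21 (adjusted p = 0.296). Npy, Sst, Vip, Cck, Tac2 and Cort remained called in that fit, at 0.73, 0.60, 0.44, 0.41, 0.77 and 0.98. Across all tested genes 24.3% were called higher in it and 25.6% lower.

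**Figure D4:**
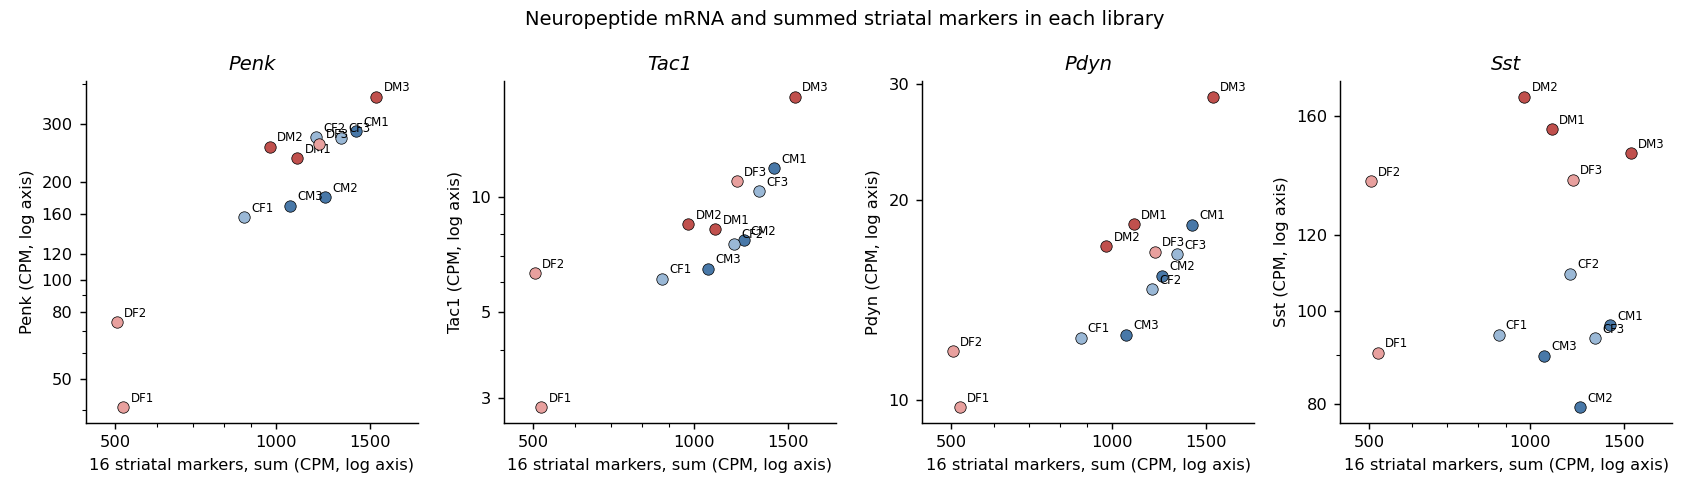
CPM of Penk, Tac1, Pdyn and Sst against the summed CPM of 16 striatal markers, both on log axes, 1 labelled point per library (CM and CF, control males and females in blue; DM and DF, Dnmt3l males and females in red; replicate number last). Dnmt3l females 1 and 2 sit at its low end, at 518 and 503 CPM.

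Within males, 5 of the 10 genes rose and none fell, where 20.4% of all tested genes were called higher and 22.7% lower. Npy rose by 0.98 ± 0.18 (log2, adjusted p = 0.00172), Tac2 by 0.99 ± 0.24 (0.00636), Sst by 0.82 ± 0.14 (0.00164), Vip by 0.61 ± 0.12 (0.00274) and Cck by 0.47 ± 0.12 (0.00712, all edgeR). Cort, at 1.11 ± 0.48, had an adjusted p of 0.0773 and was called by DESeq2 (adjusted p = 0.0403). Without adjustment 6 genes passed in edgeR, and DESeq2 called none lower. Cck was not called in males by limma on FPKM (0.29, adjusted p = 0.0881) or by edgeR without the 3 control libraries with liver transcripts (0.46, adjusted p = 0.0537).

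Within females none of the 10 genes was called in either direction, where 4.73% of all tested genes were called higher and 4.38% lower. Without adjustment Vip and Cck passed in edgeR, both higher, and DESeq2 called 1 gene, Vip. Vip was at 0.41 ± 0.12 (adjusted p = 0.0547), Cck at 0.27 ± 0.12 (0.123), Sst at 0.29 ± 0.14 (0.168) and Npy at 0.32 ± 0.17 (0.211, all edgeR). Without Dnmt3l female 1, a fit in which 21.8% of all tested genes were called higher, 4 of the 10 were called higher: Sst at 0.45 (adjusted p = 0.00104), Vip at 0.38 (0.0277), Cck at 0.30 (0.0426) and Cort at 1.05 (0.0207, all edgeR). Without Dnmt3l female 3, Penk was called lower in females, at -2.02 (adjusted p = 0.0381, edgeR), where 0.184% of all tested genes were, and Npy was at 0.06 in place of 0.32.

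The difference between the male and female effects was tested directly. None of the 10 genes was called, and 0% of all tested genes were (edgeR). Without adjustment Npy (0.66 ± 0.25) and Sst (0.53 ± 0.20) passed, with adjusted p of 0.679 each, and DESeq2 called none of the 10 (3 genes higher and 1 lower among all tested). All 10 estimates were higher in males, the largest being that of Penk at 1.34 ± 0.70 (log2). Control males and females were also compared: none of the 10 genes was called, none passed without adjustment in edgeR and DESeq2 called none, where 0.0253% of all tested genes (4 genes) were called.

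**Figure D5:**
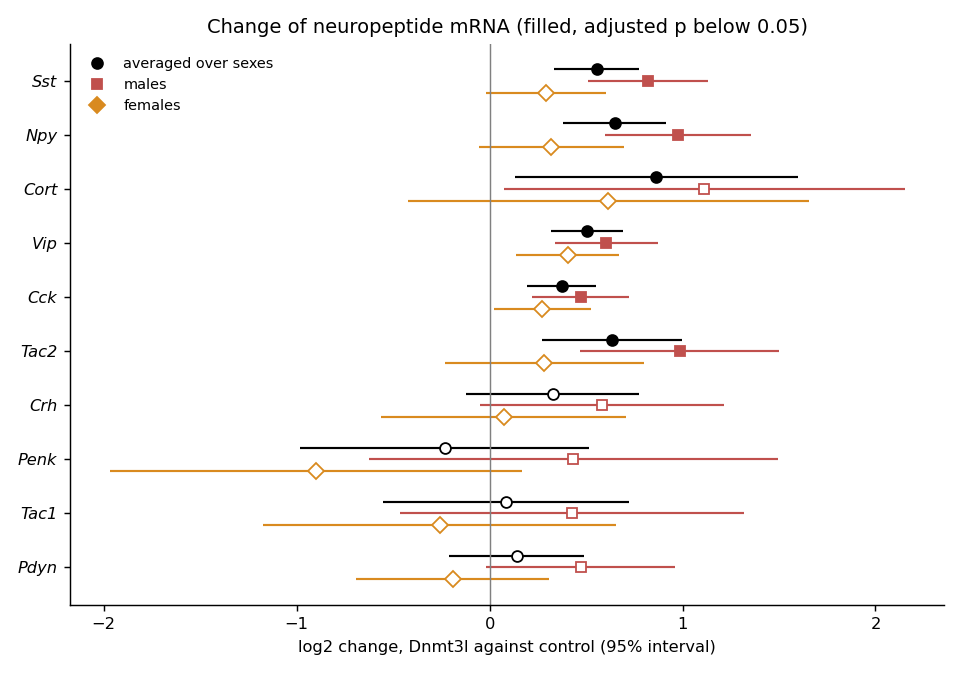
Log2 change of each neuropeptide gene in Dnmt3l against control libraries, averaged over sexes, in males and in females, with 95% intervals from edgeR and filled symbols for adjusted p below 0.05. In males Npy, Sst, Vip, Cck and Tac2 lie clear of 0, and in females the Penk estimate is -0.90 with an interval from -1.97 to 0.17.

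Receptors of the 10 peptides were described in turn. Of 20 receptor genes 17 were tested (Sstr5, Cckar and Tacr2 were too low), and 6 rose (35.3%, against 25.2% of all tested genes) and none fell, with a median log2 change of 0.19. For Cckbr, the main brain receptor for cholecystokinin, all 6 Dnmt3l libraries were above all controls. It was at 56.3 ± 5.62 CPM in the control males, 63.9 ± 2.09 in control females, 76.3 ± 6.93 in Dnmt3l males and 82.7 ± 6.48 in Dnmt3l females (SD, n = 3), a log2 change of 0.40 ± 0.07 (adjusted p = 0.000787, edgeR). It was called in each sex, with adjusted p of 0.00515 in males and 0.043 in females.

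Crhr2 changed most among receptors, by 0.83 ± 0.27 (adjusted p = 0.0203, edgeR) from a low level of 1.49 to 1.70 CPM in the control groups. The opioid receptor gene Oprm1 rose by 0.39, Npy1r by 0.32, the somatostatin receptor gene Sstr4 by 0.31 and Crhr1 by 0.28. The other receptors were not called: Npy5r was at 0.39, Sstr1 at 0.29, Sstr2 at 0.19, Tacr1 at 0.19, Vipr1 at 0.14, Sstr3 at 0.14, Oprd1 at 0.11, Oprk1 at 0.09, Npy2r at 0.08, Tacr3 at 0.01 and Vipr2 at -0.05. Both peptide and receptor rose for the pairs of Npy with Npy1r, Sst with Sstr4 and Cck with Cckbr. The other tested Npy and somatostatin receptor genes were not called. Vip and Tac2 rose, but neither Vip receptor gene was called, nor were the tachykinin receptor genes Tacr1 and Tacr3. Conversely, Oprm1, Crhr1 and Crhr2 rose while Penk, Pdyn and Crh were not called.

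Genes that process and package peptides mostly rose. Of 25, 17 rose (68%) and 3 fell (12%, against 26.4% of all tested genes), with a median log2 change of 0.34. The granin gene Chgb rose by 0.86 ± 0.11, Vgf by 0.83 ± 0.10 and Scg3 by 0.73 ± 0.08, each with all 6 Dnmt3l libraries above all controls. Vgf was at 159 ± 1.18 CPM in males and 162 ± 18.8 in females of the control genotype, against 323 ± 27.0 in Dnmt3l males and 252 ± 62.8 in Dnmt3l females (SD, n = 3). Among the enzymes, the prohormone convertases Pcsk1 and Pcsk2 rose by 0.34 and 0.33, carboxypeptidase E (Cpe) by 0.72, and the amidating enzyme Pam by 0.41. Those that fell were Mme (neprilysin, which degrades peptides) at -0.48, Cadps2 at -0.41 and Prep at -0.32. Many of these genes are made by most neurons, and some by glia.

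Of 36 other neuropeptide precursors, 21 passed the filter, and 5 rose (23.8%, against 25.2% of all tested genes) and 1 fell, with a median log2 change of 0.28. Nmb (neuromedin B) rose by 1.29 ± 0.41 and Adm (adrenomedullin, made largely by vessels) by 1.04 ± 0.25, and Pnoc (nociceptin), Cartpt and Grp rose by 0.76, 0.75 and 0.56. Hcrt, the orexin gene of the hypothalamus, was called lower, but 58 of its counts were in control male 2, with 0 to 9 in any other library, and its fitted change of -4.33 depends on the prior count. Nmu and Tac4 were at 0. In the list of olfactory bulb, septum, amygdala and hypothalamus markers 1 of 11 rose (9.09%) and 2 fell (18.2%, against 26.4% of all tested genes). Besides Hcrt, Th changed by -1.53 and Zic2 by 0.34, and the list summed to 67.9 to 94.6 CPM in controls and 60.5 to 108 in Dnmt3l libraries.

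A list of activity-induced transcription factors, which also held Creb1, Crem and CREB coactivator genes, mostly moved the other way. Several of these factors act at the promoters of peptide genes. Of 20 tested, 2 rose (10%, against 25.2% of all tested genes) and 14 fell (70%, against 26.4%), with a median log2 change of -0.54. Fos changed by -1.34 ± 0.31, Junb by -1.25 ± 0.26 and Egr2 by -1.19 ± 0.34. Creb1, which encodes the protein that binds the element in the Sst promoter shown above, changed by -0.47 and its relative Crem by -0.42, while the CREB coactivator genes Crtc1 and Crtc2 rose by 0.24 and 0.30. The summed level was 1417 to 1956 CPM in controls and 1004 to 2135 in Dnmt3l libraries, with Dnmt3l female 1 at the top.

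For each called neuropeptide gene the 2 tested genes with the nearest profile over the 12 libraries were found by root mean square distance of centred log2 CPM. For Npy these were Cxcl14 (0.13) and Itgb2 (0.13), for Sst Tspan7 (0.08) and Ptprr (0.09), for Vip Tmem178 (0.09) and Iqsec3 (0.10), and for Cck Ergic1 (0.08) and Xkr6 (0.08). Tac2 lay nearest to Pros1 (0.19) and Sst (0.20), and Cort to Slc9b2 (0.30) and Gm45665 (0.34). Among the 10 genes themselves the closest pairs were Vip and Cck (0.15) and Npy and Sst (0.19). Tac1 and Pdyn lay at 0.30 from each other, and Penk and Vip, at 0.97, were far apart.

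Transcript use was simple for most of these genes. Npy, Sst, Crh and Cort had 1 deposited mRNA transcript each, and 1 transcript held 93.7% of the Vip, 95.7% of the Cck, 99.5% of the Tac2 and 99.5% of the Pdyn counts. Tac1 divided mainly between 2 transcripts, with 52.5% and 46.5% of its counts. Penk divided between ENSMUST00000070375 and a shorter transcript, the first holding 54.3% ± 3.70 of counts in controls and 58.8% ± 4.47 in Dnmt3l libraries (SD, n = 6), a difference of about 1 SD. In the table of long non-coding RNA, A830012C17Rik overlaps Penk by 499 bases on the opposite strand, with at most 10 counts per transcript and library, far under the 1052 to 9208 counts of Penk. Same-strand non-coding transcripts were also assigned to Crh (1 to 12 counts per library, beside 42 to 86 for its mRNA) and to Cck (0 to 13 counts).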

How the data were processed

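The 12 mRNA libraries (3 in each of 4 groups, from the labels) were used. Per the file headers, the authors deposited expected counts and FPKM for each of 119414 Ensembl transcripts, 77618 of which had a value that was not whole. The submitters' processing notes name cutadapt 1.9.1, HISAT2 2.0.1, HTSeq 0.6.1, DESeq2 and GRCm38, with no role. The labels' protocols describe a dUTP kit that marks strand; the sources used here do not state whether counting used strand. Expected counts were summed per gene and rounded, and the 1774 transcripts without a gene ID (0.533% to 0.601% of counts) were left out. Genes with an FPKM of 0.5 or more in at least 3 of 12 libraries were tested with edgeR 4.0.16 (R 4.3.3; TMM, quasi-likelihood, 4 group means), and called at an adjusted p below 0.05. Intervals on the log2 scale are at 95%. DESeq2 1.42.0, limma 3.58.1 on log2(FPKM + 0.1), upper-quartile scaling, no filter, a replicate block and leaving out libraries were alternatives, and the code was tested on simulated data. FPKM values are the deposited ones, summed per gene.

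The text names all 10 genes, the 3 called genes with the largest change in each other list, every tested receptor and the 2 nearest profiles of each called gene; other list genes and the library values given for Drd2 were named after their values were seen. The members and lists were chosen with earlier results of these data known. Sequences are from RefSeq. Small RNA and circular RNA were not used here.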

Additional observations from a re-analysis of the deposited data

How the results depend on the processing

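Cort had 28 to 149 and Crh 42 to 86 counts per library. Changes of single neuropeptide genes and counts of called genes gave 1140 recomputed values, of which 1044 stayed the same. For a change this means that direction and call were kept, and for a count that it was equal or close. With DESeq2, 1 of the 10 genes was called higher in females, and over all genes 1555 were higher and 1618 lower in females; 3 and 1 were called for the difference between sexes, and 1 control sex difference was higher. Upper-quartile scaling called 1 of the 10 in females. With limma on log2(FPKM + 0.1), 2329 genes were higher in the averaged effect, 1595 in males, and 94 higher and 245 lower in females; Tac1 was -0.10, Pdyn -0.0419 and Cort was not called (adjusted p = 0.164). TMM, upper-quartile and FPKM scaling put the median of all genes at 0.02, 0.06 and -0.06.

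Without the 3 control libraries with liver transcripts, 3 of the 10 genes were called higher, with 1920 genes higher and 2439 lower (averaged), 1558 and 2126 (males), and 2 and 0 (females); 1 gene was lower for the difference between sexes and 0 for control sex. Tac1 was then -0.21, Pdyn -0.042 and, in females, Crh -0.45. With the striatal covariate, added after the data were seen, Penk was 0.21 and, in females, Tac1 0.50 and Pdyn 0.27; Tac1 was -0.0581 for the difference between sexes. The cause was not tested.

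Leaving out 1 library at a time, genes called in females ran from 2 to 3448 higher and 5 to 3995 lower, members called from 0 to 4 higher and 0 to 1 lower, and members called lower in the averaged effect from 0 to 1. For the difference between sexes 0 to 2 genes were higher and 0 to 24 lower, and for control sex 0 to 1 higher. Tac1 ran from -0.19 to 0.25 (averaged), -0.0526 to 0.72 (males) and -0.81 to 0.10 (females), and in females Crh ran from -0.14 to 0.41, Npy from 0.06 to 0.45 and Sst from 0.20 to 0.45.

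Same-numbered libraries did not deviate together (18 correlations, -0.33 to 0.09). With a replicate block Cort was not called (0.85, adjusted p = 0.0718) and Tac1 was -0.0286; no other averaged call of the 10 changed.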
